A study of Arabidopsis thaliana with 27 samples.

Results

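The loci described here are the nuclear small nucleolar RNA (snoRNA) genes of Arabidopsis thaliana that carry an AT identifier in a table of small RNA reads. They are the 240 rows whose name begins with the snoRNA class and an AT number, of 2071 loci in the table and 378 snoRNA loci in all. The other 132 snoRNA loci carry ENSRNA identifiers, and 6 AT loci were left out by the rule. A pair of rows, AT1G07702 and AT2G09460, held identical counts, so the 240 loci gave 239 distinct rows, and 1 locus had no read. For testing, 210 loci passed the filter on low counts, and the other 30 had at most 181 reads each over all libraries.

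The study exposed germinating, dark-kept seedlings to UV-B and sequenced the small RNA of etiolated hypocotyls. There were 27 libraries, 3 in each of 9 groups: uvr8-6, xpf-3 and wild type (WT, Columbia-0), each kept dark or given 3000 or 30000 µmol m-2 of UV-B (called 3K and 30K). Seeds in every group had been on 0.5x MS medium with 100 µM of the gibberellin GA4 for 2.5 days in the dark before exposure, the dark controls included. Hypocotyls were cut 6 hours after exposure per the protocol text, whereas the series title gives 2 days, and each mutant is represented by 1 allele.

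snoRNAs guide the chemical modification and the processing of ribosomal RNA. Box C/D snoRNAs carry a C box (TGATGA or a close variant) near the 5′ end and a D box (CTGA) near the 3′ end, and the bases just before a D box pair with the RNA whose ribose is to be methylated. H/ACA snoRNAs end shortly after an ACA and direct pseudouridylation, and U3 is needed to cut the precursor of ribosomal RNA. Many plant snoRNA genes lie in clusters, and some are transcribed together with a tRNA gene. UVR8 is the plant photoreceptor for UV-B, and XPF is a subunit of an endonuclease of nucleotide excision repair.

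All 240 loci were found by identifier in the RefSeq annotation of TAIR10.1. TGATGA stood within the first 20 bases of 112 loci (46.7%, against 1.17% of all 37899 annotated genes), and these are called the box C loci below. Among the rest, 55 loci had ACA within their last 10 bases and are called the ACA-end loci. That ending is found in 22.9% of the snoRNA loci and in 12% of all genes, so it marks H/ACA genes loosely. The remaining 73 loci had neither, and 44 of them had CTGA in their last 20 bases. The median length was 86 bases for box C loci, 140 for ACA-end loci and 88 for the others.

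The sequences below are those on which the results turn, written 5′ to 3′ as in RefSeq TAIR10.1. The first set holds 3 box C loci that carry the same guide-like stretch and did not change alike in uvr8-6; capitals mark 15 bases that are fully complementary to bases 1755 to 1769 of the 18S ribosomal RNA and lie 1 base before the last CTGA.
AT4G06310, chr4:8712720-8712813, minus strand: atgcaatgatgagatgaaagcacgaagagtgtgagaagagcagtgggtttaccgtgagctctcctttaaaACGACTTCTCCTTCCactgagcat
AT4G06250, chr4:8460056-8460149, plus strand: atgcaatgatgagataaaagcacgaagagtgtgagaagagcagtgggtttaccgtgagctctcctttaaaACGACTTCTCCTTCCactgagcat
AT3G04165, chr3:7682639-7682749, plus strand: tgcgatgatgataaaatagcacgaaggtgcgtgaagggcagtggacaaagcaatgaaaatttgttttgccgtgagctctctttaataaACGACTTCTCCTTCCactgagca

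The second set holds 3 loci that were all higher in uvr8-6 and share 34 bases, in capitals, that no other of the 240 loci contains.
AT2G04965, chr2:2185022-2185087, minus strand: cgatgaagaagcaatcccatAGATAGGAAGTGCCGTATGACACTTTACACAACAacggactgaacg
AT2G06855, chr2:7520507-7520579, plus strand: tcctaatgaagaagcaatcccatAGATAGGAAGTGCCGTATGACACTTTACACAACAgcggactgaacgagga
AT4G05048 (named U49.1 in the file), chr4:2586978-2587104, minus strand: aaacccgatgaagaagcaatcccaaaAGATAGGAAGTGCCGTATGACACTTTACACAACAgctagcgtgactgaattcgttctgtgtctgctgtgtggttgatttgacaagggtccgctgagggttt

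The third set holds box C loci named for their change: AT4G08625, the most abundant; AT5G02665 and AT5G02675, neighbours that were lower in uvr8-6; and AT3G01316 and AT5G02305, alike in sequence and opposite in uvr8-6. Capitals mark TGATGA near the start and the last CTGA.
AT4G08625, chr4:15467096-15467174, plus strand: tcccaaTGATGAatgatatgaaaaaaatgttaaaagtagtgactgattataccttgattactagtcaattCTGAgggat
AT5G02665, chr5:5674408-5674499, minus strand: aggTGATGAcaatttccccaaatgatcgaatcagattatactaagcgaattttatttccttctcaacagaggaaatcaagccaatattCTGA
AT5G02675, chr5:5674579-5674672, minus strand: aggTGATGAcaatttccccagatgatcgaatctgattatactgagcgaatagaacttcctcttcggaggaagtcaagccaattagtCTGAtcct
AT3G01316, chr3:104835-104909, minus strand: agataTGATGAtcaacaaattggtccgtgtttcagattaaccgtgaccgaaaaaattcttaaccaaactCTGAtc
AT5G02305, chr5:4866462-4866538, plus strand: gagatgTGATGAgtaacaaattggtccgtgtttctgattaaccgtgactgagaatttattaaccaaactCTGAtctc

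The fourth set holds 5 of 9 loci that lie directly downstream of a tRNA-Gly gene. Capitals mark CTGAGCTC, the 8 bases that all 9 share, which 11 of the 240 loci contain; it includes a D box.
AT1G04527, chr1:2111064-2111147, minus strand: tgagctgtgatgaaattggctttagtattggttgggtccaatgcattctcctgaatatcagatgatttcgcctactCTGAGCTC
AT1G08327, chr1:22313324-22313411, minus strand: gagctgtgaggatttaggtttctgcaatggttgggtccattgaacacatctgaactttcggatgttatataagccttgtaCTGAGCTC
AT2G08370, chr2:12881664-12881750, plus strand: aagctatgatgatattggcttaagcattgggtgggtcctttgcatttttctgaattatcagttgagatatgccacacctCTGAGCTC
AT2G08375, chr2:12882818-12882893, plus strand: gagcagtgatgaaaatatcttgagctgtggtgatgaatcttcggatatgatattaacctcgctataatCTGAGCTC
AT2G08390, chr2:12975859-12975945, minus strand: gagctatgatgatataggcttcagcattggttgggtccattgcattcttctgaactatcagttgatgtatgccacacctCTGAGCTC

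The last set holds 2 ACA-end loci that were higher in uvr8-6, with the ACA in capitals.
AT5G07095, chr5:19624548-19624687, plus strand: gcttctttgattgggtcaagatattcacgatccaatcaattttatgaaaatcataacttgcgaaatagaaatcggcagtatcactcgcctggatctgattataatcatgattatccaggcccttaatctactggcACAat
AT1G06553, chr1:11685235-11685376, plus strand: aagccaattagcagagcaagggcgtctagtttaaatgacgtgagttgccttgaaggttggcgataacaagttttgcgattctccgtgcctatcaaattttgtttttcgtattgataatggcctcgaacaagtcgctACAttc

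Levels are given as CPM, read counts scaled to a common library size, with TMM factors. Library totals ran from 681228 to 1970871 counts (median 1173114), and the snoRNA loci held 15813 to 59185 of them (median 30042). Depth is therefore ample for the abundant loci and thin for the rest. AT4G08625, AT2G04965, AT4G06310, AT3G01316 and AT5G07095, the 5 most abundant loci, held 23.1% of all reads of the 240 loci, and the 20 most abundant held 44.2%. Per length, AT2G04965 was highest with 3021 CPM per 100 bases, followed by AT4G08625 with 2693. AT3G01316 (960) and AT4G06310 (959) came next and lay far below both. Among classes, the median over loci was 66.3 CPM per 100 bases for box C loci, 33.5 for ACA-end loci and 52.3 for the others.

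Reads of near-identical genes may have been split between copies, since the treatment of reads with several matches is not given in the sources used here. There were 31 loci with at least 90% identity to another snoRNA gene, and 12 of them were among those called different in uvr8-6. Conversely, 101 loci had no 20-base word elsewhere in the genome. Another 123 loci overlap a second annotated gene, and the strand used in counting is not given, so reads of host transcripts cannot be told from those of the snoRNA. The UVR8 and XPF genes are not among the loci counted, so the genotype labels were not checked on them.

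The 240 loci together took 2.87% ± 0.542 of all counts in uvr8-6 dark, 1.93% ± 0.543 in xpf-3 dark and 2.11% ± 0.165 in WT dark (SD, n = 3 each). After 30K UV-B the shares were 3.19% ± 0.703 in uvr8-6, 3.29% ± 0.0803 in xpf-3 and 2.95% ± 0.82 in WT. In xpf-3 the 3 libraries after 30K (3.23% to 3.38%) all lay above the 3 dark ones (1.3% to 2.29%). In uvr8-6 (2.48% to 3.88% after 30K, 2.43% to 3.47% in the dark) and in WT (2.08% to 3.71% after 30K, 1.99% to 2.29% in the dark) the ranges overlapped. As shares of counts outside ribosomal RNA, the 240 loci took 14.0% ± 3.26 in uvr8-6 dark and 8.46% ± 1.5 in WT dark. On that measure the WT libraries did not overlap, with 10.6% to 15.7% after 30K and 7.27% to about 10% in the dark. The gap in WT was narrow, since the highest dark library lay just below the lowest one after 30K. The xpf-3 libraries did not overlap either, with 12.1% to 15.9% after 30K and 5.46% to 8.57% in the dark. Those of uvr8-6 did overlap, with 13.2% to 22.2% after 30K and 10.9% to 17.4% in the dark. In summed CPM, WT had 23550 to 29499 after 30K and 19930 to 22938 in the dark, again without overlap. The other genotypes overlapped on that measure. For xpf-3 it was 24127 to 31498 after 30K and 17485 to 24358 in the dark. For uvr8-6 it was 29356 to 53230 after 30K and 27484 to 35472 in the dark. The share of fragments of a snoRNA in bulk tissue depends on the number of cells and on the RNA per cell, and these cannot be told apart.

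One library stands apart. In replicate 2 of uvr8-6 after 30K the loci summed to 53230 CPM, while the lowest of the 3 libraries of that group had 29356 CPM. How far it stands apart depends on the measure. Its share of all counts was 3.88%, close to the 3.71% of replicate 2 of WT after 30K. Outside ribosomal RNA its share was 22.2%, against 17.4% in replicate 2 of uvr8-6 dark. Counts of calls, and calls of loci picked by the naming rule, that change without it are given with and without it.

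**Figure D1:**
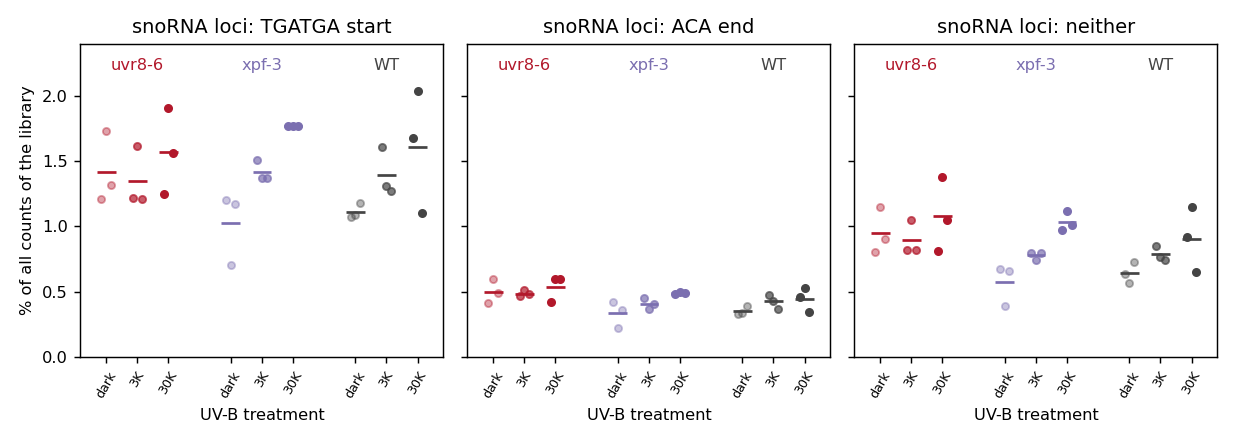
Share of all counts of a library, in percent, taken by the snoRNA loci with a TGATGA start, with an ACA end and with neither, in each of the 27 libraries (points; lines are means of 3). TGATGA-start loci averaged 1.42% in uvr8-6 dark and 1.11% in WT dark, and ACA-end loci 0.497% in uvr8-6 dark and 0.351% in WT dark; in uvr8-6 and WT the libraries after 30K UV-B spread the most.

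The first question was how the uvr8-6 mutant differs from WT, taken as the mean of the dark, 3K and 30K differences (9 libraries each). Many snoRNA loci differed, in both directions. In edgeR's quasi-likelihood test with a Benjamini-Hochberg adjusted p under 0.05 over the 1109 loci tested, 94 of the 210 were called (44.8%), against 30.5% of all loci tested. Of these, 61 were higher in uvr8-6 (all loci, 14.3%) and 33 lower (all loci, 16.1%). The median log2 change was 0.10 over the 210 and -0.02 over all loci. With libraries scaled to the reads of snoRNA loci instead, the median of all loci moved by -0.18 and the calls split into 47 higher and 46 lower. Thus the balance of directions rests on the scaling, while the number of loci that differ does not. The 6 loci that the rule leaves out were all called higher, which would give 67 higher and 33 lower.

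The classes differed in their counts, but the ACA-end list was drawn up later, with the counts in view. Of 50 ACA-end loci tested, 22 were higher and 1 was lower, with a median log2 change of 0.42; with snoRNA scaling the counts were 18 and 2 and the median was 0.26. Of 100 box C loci, 19 were higher and 22 lower (median -0.04), or 12 and 28 (median -0.21) with snoRNA scaling. Of the 60 loci with neither, 20 were higher and 10 lower (median 0.27), or 17 and 16 (median 0.09). Loci inside a protein-coding gene gave 17 higher and 4 lower of 52 (median 0.18), or 13 and 5 of 53 (median 0.00) with snoRNA scaling. Loci in clusters gave 50 higher and 23 lower of 164 (median 0.09), or 39 and 33 of 165 with a median of the other sign (-0.07). In the main scaling 29% of the 210 snoRNA loci were higher and 15.7% lower, against 14.3% and 16.1% of all loci tested. The difference between classes was not itself tested.

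**Figure D2:**
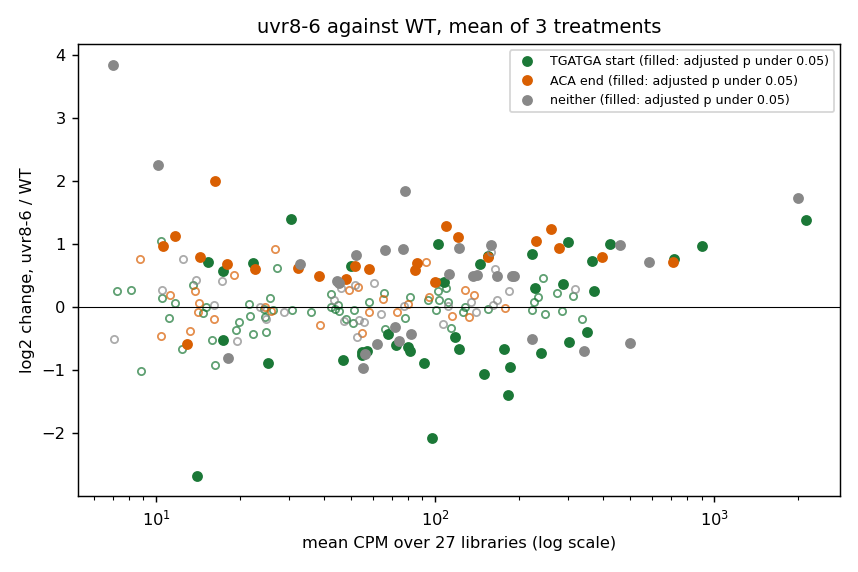
Log2 change in uvr8-6 against WT (mean of 3 treatments) over the mean level of each of the 210 tested loci, by sequence class; filled points are those called (61 higher, 33 lower). ACA-end loci, listed with the counts in view, lie mostly above 0, and AT4G08625 and AT2G04965, the most abundant, lie at 1.39 and 1.74.

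Of the 10 most abundant loci, 9 were higher in uvr8-6, and AT1G06243 was lower. The ranking is by mean CPM over all 27 libraries, those of uvr8-6 included, so it favours loci that are high in uvr8-6. Over all loci tested, 14.3% were called higher. AT4G08625, a box C gene within an intron of the protein-coding gene AT4G31980 on the same strand, had a lowest, median and highest level of 2244, 2995 and 8186 CPM in uvr8-6 and 881, 1288 and 2216 CPM in WT. Every uvr8-6 library was above every WT library. The log2 change was 1.39 ± 0.23 (SE; edgeR adjusted p = 0.000181), and 1.17 ± 0.20 (adjusted p = 0.000259) without replicate 2 of uvr8-6 after 30K, which held the 8186 CPM. Such a gap was present in the dark alone, with 2916, 4285 and 3393 CPM in uvr8-6 and 1107, 881 and 1278 CPM in WT (log2 change 1.70 ± 0.41, edgeR adjusted p = 0.0137). In xpf-3 dark the locus had 1455, 850 and 1134 CPM, which overlaps WT.

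AT2G04965, the second most abundant, had 2394, 3181 and 8442 CPM as lowest, median and highest in uvr8-6 and 693, 1083 and 1445 CPM in WT, with no overlap (log2 change 1.74 ± 0.25, edgeR adjusted p = 4.17e-05). Its relatives of the 34-base stretch moved the same way at far lower levels. AT2G06855 had 6.61, 17.7 and 45.2 CPM in uvr8-6 and 0, 4.57 and 9.57 CPM in WT (log2 change 2.25 ± 0.61, edgeR adjusted p = 0.00752). AT4G05048 (U49.1), singled out after its values were seen and too low for the naming rule, had 176 reads over the 9 uvr8-6 libraries and 17 over the 9 WT libraries. Its levels ran from 8.2 to 46.4 CPM in uvr8-6 and from 0 to 4.79 CPM in WT, without overlap, and its log2 change was 3.85 ± 0.75 (edgeR adjusted p = 0.000834), the largest of all 210. It was 3.69 to 5.27 over the 25 alternative fits. In the dark alone U49.1 had 14.3, 18 and 13.5 CPM in uvr8-6 and 4.79, 0 and 0 CPM in WT, and the change of 3.06 ± 1.24 did not pass (edgeR adjusted p = 0.126). AT2G04965 matches a part of U49.1 at 87.9% of its bases, and 70.2% of its own 20-base words occur elsewhere in the genome. Whether the reads of the 3 loci come from 1 of them was not tested.

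Among the ACA-end loci, AT1G06553, with 8.9% of its 20-base words elsewhere, had 143, 177 and 277 CPM (lowest, median, highest) in uvr8-6 and 69.3, 83.2 and 118 CPM in WT (1.11 ± 0.17, edgeR adjusted p = 0.000111). No uvr8-6 library reached down to WT. AT5G07095, the most abundant ACA-end locus, had 700, 829 and 1840 CPM in uvr8-6 and 405, 577 and 753 CPM in WT, so the groups overlapped at their edges (0.72 ± 0.17, edgeR adjusted p = 0.00224). AT1G06453 (1.05 ± 0.16) likewise did not overlap, with 235 to 705 CPM in uvr8-6 and 130 to 192 CPM in WT. AT5G06115 lies within NRPB12, which encodes a subunit of RNA polymerase II, and had a log2 change of 1.13 ± 0.28. Across all 210 loci, 18 were higher in every uvr8-6 library than in any WT library (3.61% of all loci tested) and 2 were lower (2.07%).

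Among loci that were lower, a trio of neighbours within the long non-coding RNA gene AT5G02645 fell together. AT5G02675 had 68.0, 91.4 and 115 CPM in uvr8-6 and 138, 189 and 233 CPM in WT, with no overlap (log2 change -1.06 ± 0.13, edgeR adjusted p = 6.41e-06). AT5G02665 (-0.95 ± 0.17) had 88.1, 111 and 157 CPM in uvr8-6 and 142, 235 and 337 CPM in WT. AT5G02655 (-0.67 ± 0.17) had 63.2, 90 and 112 CPM in uvr8-6 and 73.7, 143 and 214 CPM in WT. In both of these loci the groups overlapped. AT5G02655 and AT5G02665 are 92.8% identical, and AT5G02675 is 79.8% identical to AT5G02665 with 1.3% of its 20-base words elsewhere, so its value rests least on shared reads. AT1G07393, with no 20-base word elsewhere, was also lower (-0.96 ± 0.16, edgeR adjusted p = 0.000158).

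AT1G06277 was the other locus with no overlap, at 0, 34.2 and 76.8 CPM in uvr8-6 and 98.6, 121 and 171 CPM in WT (-2.07 ± 0.54, edgeR adjusted p = 0.006). Its value is uncertain, because 97.2% of its 20-base words occur elsewhere and the near-identical AT1G06247 was higher (1.40 ± 0.50, edgeR adjusted p = 0.0382). AT1G06247 missed the threshold in 10 of 18 fits that left out 1 library each. Without replicate 2 of uvr8-6 after 30K its change was 1.38 ± 0.53 and did not pass (edgeR adjusted p = 0.062). AT4G08175 (-2.67 ± 0.73, edgeR adjusted p = 0.00757), with 0, 1.8 and 11.5 CPM in uvr8-6 and 0.983, 18.8 and 31.4 CPM in WT, is likewise uncertain, since 59.5% of its words occur elsewhere.

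**Figure D3:**
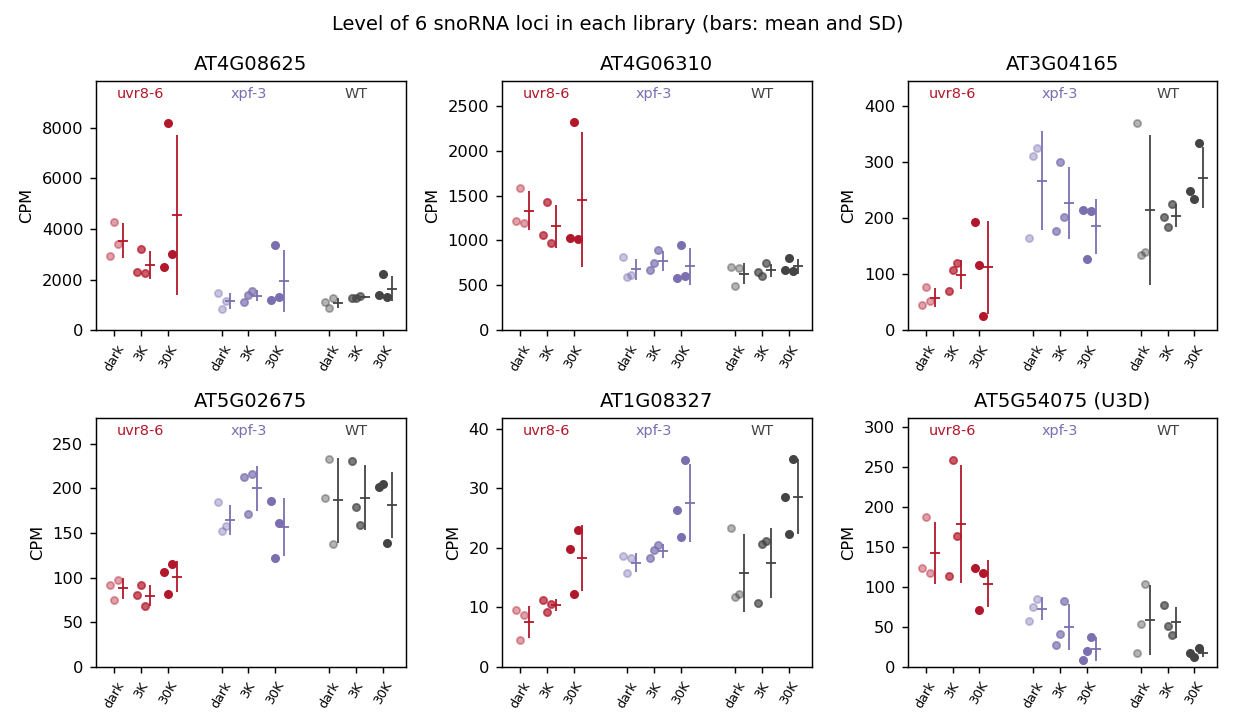
Level in CPM of 6 snoRNA loci in every library, by genotype and UV-B treatment (points, with mean and SD of 3). AT4G08625 and AT4G06310 are higher in all 9 uvr8-6 libraries than in any WT library and AT5G02675 is lower in all 9; AT3G04165, AT1G08327 and AT5G54075 (U3D) overlap.

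Loci with the same pairing stretch could be compared directly. There were 24 loci with at least 12 bases complementary to 18S or 5.8S ribosomal RNA ending 0 or 1 bases before a CTGA (17 box C, 7 with neither motif, 0 ACA-end). Of the 22 tested, 6 were higher in uvr8-6 and 4 lower. Of the 210 snoRNA loci 29% were higher and 15.7% lower, and of all loci tested 14.3% and 16.1%. Whether loci with such a stretch differ from the others was not tested. The stretch ACGACTTCTCCTTCC, shown above, is carried by 3 of them. AT4G06310 had 975, 1194 and 2324 CPM (lowest, median, highest) in uvr8-6 and 491, 666 and 808 CPM in WT, with no overlap (log2 change 0.97 ± 0.16, edgeR adjusted p = 0.000148). AT3G04165, with the same 15 bases in a gene 69.4% identical, had 26.1, 76.5 and 193 CPM in uvr8-6 and 134, 226 and 370 CPM in WT (-1.40 ± 0.29, edgeR adjusted p = 0.00116). The 2 genes with the same complementarity thus differed from WT in opposite directions. In the dark alone AT3G04165 had 44.8, 76.5 and 52.3 CPM in uvr8-6 and 370, 134 and 140 CPM in WT. The third, AT4G06250, is 98.9% identical to AT4G06310 and had at most 25.5 CPM in uvr8-6 and 35.6 CPM in WT; its change of -0.09 ± 0.54 did not pass (edgeR adjusted p = 0.977), and its reads cannot be separated from those of AT4G06310.

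A group of 4 clustered genes shares CCTTCCTTGGATGT, complementary to bases 414 to 427 of 18S ribosomal RNA. AT4G39366 (log2 change 0.82, edgeR adjusted p = 2.8e-05) and AT4G39364 (0.69, edgeR adjusted p = 0.000314) were higher in uvr8-6. AT4G39361 (0.31, edgeR adjusted p = 0.0554) and AT4G39363 (0.26, edgeR adjusted p = 0.0642) did not pass. AT3G58193 (-0.40, edgeR adjusted p = 0.00357) and AT3G58196 (-0.72, edgeR adjusted p = 0.00135), which share a stretch complementary to bases 159 to 172, were both lower. AT3G01316 and AT5G02305, 84.4% identical, were again opposite. AT3G01316 had 627, 871 and 1896 CPM in uvr8-6 and 404, 522 and 902 CPM in WT (0.77 ± 0.17, edgeR adjusted p = 0.00212). AT5G02305 had 30.0, 39.1 and 49.3 CPM in uvr8-6 and 33.5, 67.3 and 105 CPM in WT (-0.71 ± 0.12, edgeR adjusted p = 0.000166). Few of their 20-base words occur elsewhere, 1.8% and 1.7%.

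Calls in uvr8-6 were also counted by cluster. Many clusters held a single called gene and so could not hold calls in both directions. The counts therefore do not measure how far neighbours agree. In 57 clusters with at least 2 tested genes, 40 held a call, 5 held calls in both directions, 6 were called higher throughout and 3 lower throughout. One mixed cluster holds AT3G01316 (0.77) with AT3G00985 (-0.63) and AT3G01313 (-0.43). Another holds AT4G03295, with 405 to 1347 CPM in uvr8-6 and 221 to 492 CPM in WT (1.0 ± 0.19). Its neighbour AT4G04475 had 29.7 to 45.3 CPM in uvr8-6 and 39.7 to 75.1 CPM in WT (-0.74 ± 0.14). AT4G04465, in the same cluster, lay between 92.5 and 171 CPM in uvr8-6 and between 104 and 198 CPM in WT (0.01 ± 0.12, edgeR adjusted p = 1). Genes of a cluster can be cut from 1 transcript, so their neighbours are not independent of them.

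The 2 U3 genes encode the guide of pre-ribosomal RNA cleavage. U3D (AT5G54075) had 70.8, 123 and 258 CPM (lowest, median, highest) in uvr8-6 and 12.6, 39.2 and 104 CPM in WT, a log2 change of 1.84 ± 0.33 (edgeR adjusted p = 0.000314). Only the edges of the groups overlapped. U3B (AT5G53902) had 88.3, 232 and 372 CPM in uvr8-6 and 60.9, 133 and 219 CPM in WT, and its change of 0.61 ± 0.25 did not pass (edgeR adjusted p = 0.0722). Both gene models overlap a protein-coding gene.

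A family of 9 loci lies 0 to 13 bases downstream of a tRNA-Gly gene on the same strand; this subset was chosen after values were seen. Of the 8 tested, 7 were lower in uvr8-6 and 0 higher, with a median log2 change of -0.70 (all loci -0.02), and the counts were the same with snoRNA scaling. AT2G08390 had 30.5, 56.3 and 115 CPM in uvr8-6 and 26.2, 88.0 and 186 CPM in WT (-0.88 ± 0.25, edgeR adjusted p = 0.0108). AT1G08327 had 4.5, 10.5 and 23.0 CPM in uvr8-6 and 10.7, 21.1 and 34.9 CPM in WT (-0.81 ± 0.20, edgeR adjusted p = 0.00426). AT2G08375 had 24.6, 36.0 and 54.1 CPM in uvr8-6 and 44.3, 63.0 and 89.5 CPM in WT (-0.76 ± 0.17, edgeR adjusted p = 0.00237). In all 3 the groups overlapped, and the uvr8-6 medians lay below those of WT. The remaining 4 that were lower, AT1G04517 (-0.69), AT1G08353 (-0.70), AT1G08347 (-0.58) and AT1G04527 (-0.55), had changes of similar size. AT2G08370 did not follow: it had 28.5, 40.1 and 64.2 CPM in uvr8-6 and 20.8, 43.1 and 54.1 CPM in WT (0.21 ± 0.18, edgeR adjusted p = 0.412), although it is 89.7% identical to AT2G08390. Of the tRNA-Gly loci before them, 7 were tested and 3 were lower. The locus before AT2G08370 was higher (0.69 ± 0.20, edgeR adjusted p = 0.0115).

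**Figure D4:**
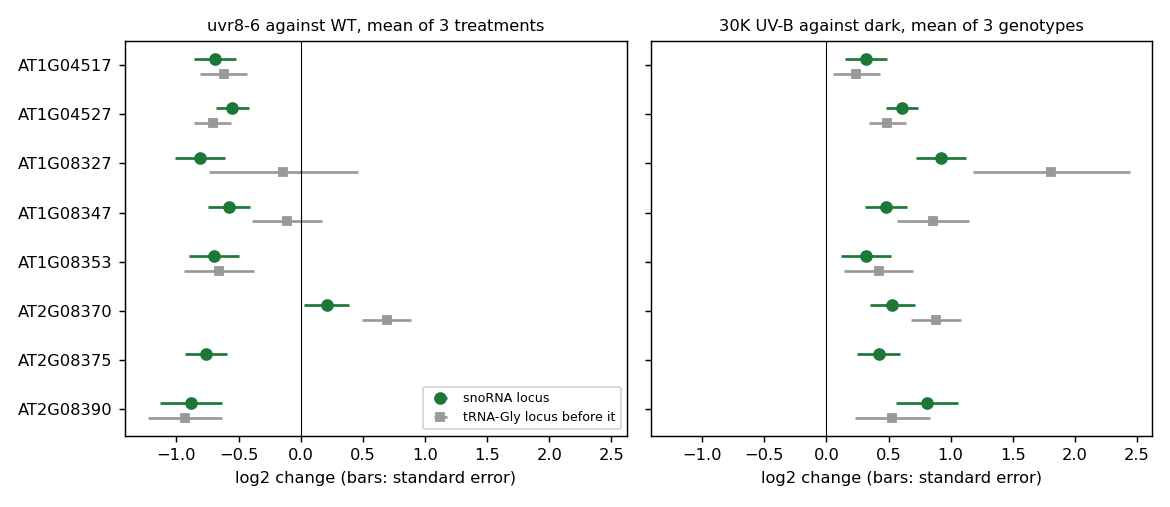
Log2 change and standard error of the 8 tested snoRNA loci downstream of a tRNA-Gly gene (circles) and of that tRNA-Gly locus where tested (squares). In uvr8-6 against WT 7 circles lie below 0 and AT2G08370 lies at 0.21; after 30K UV-B against dark all 8 lie above 0.

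In the dark alone, 19 of the 210 loci were higher in uvr8-6 and 6 lower (11.9% called, against 11.6% of all loci tested), a share close to that of all loci. Higher calls were 4.78% of all loci and lower calls 6.85%. Without overlap between the 3 libraries of each genotype, 53 were higher (13.3% of all loci tested) and 28 lower (14%). The largest change among the named loci was that of AT3G08210, a box C gene within an intron of the protein-coding gene AT3G51800. It had 5.72, 0 and 2.9 CPM in uvr8-6 dark and 17.1, 9.94 and 16.4 CPM in WT dark, with no overlap (-2.24 ± 0.66, edgeR adjusted p = 0.032), and lost its call in 4 of 6 fits that left out 1 library. AT4G03295 had 446 to 699 CPM in uvr8-6 and 221 to 274 CPM in WT (1.25 ± 0.33, edgeR adjusted p = 0.0195), a call lost in 3 of 6 such fits. The dark call of AT4G08625, given above, was lost in 1 of 6. SNOR108 (AT5G41471) had 59.1, 76.5 and 64.8 CPM in uvr8-6 dark and 30.1, 37.1 and 46.6 CPM in WT dark (0.82, edgeR adjusted p = 0.0336). This count depends on single libraries: it was 8 without WT dark replicate 1 and 3 without uvr8-6 dark replicate 2, and with snoRNA scaling the split was 11 higher and 15 lower. The dark libraries are part of the mean over treatments above, so this is no separate support for it.

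The second question was what UV-B does to the loci. Over the mean of the 3 genotypes, 30K UV-B against dark (9 libraries each) gave 37 loci higher and 3 lower of 210, 19% called against 16.9% of all loci tested. The higher calls stood against 7.94% of all loci and the lower ones against 8.93%. The median log2 change was 0.24 over the snoRNA loci and 0.11 over all loci. With snoRNA scaling, which shifts the median of all loci by -0.24, the split was 8 higher and 10 lower. No locus lay in all 9 libraries after 30K above all 9 dark ones (0% of all loci tested) or below them (0.451%). The main scaling, through its TMM factors, gives changes relative to the bulk of the loci tested, not to the total of counts. The snoRNA scaling gives changes relative to the bulk of the snoRNA loci. With ribosomal RNA left out of the library sizes the median over the snoRNA loci was 0.26. Of the named loci given below, AT5G02305, AT3G04155, AT4G04465, AT3G07735 and AT1G08327 were called higher under the snoRNA scaling too, and AT2G08390, AT3G01316, AT1G05433, AT2G09685 and AT4G03295 were not.

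By class, 24 box C loci were higher and 1 lower of 100 (median 0.34), 11 and 2 of the 60 with neither motif (median 0.32), and 2 and 0 of the 50 ACA-end loci (median 0.03). With snoRNA scaling these were 5 and 3 (median 0.12), 3 and 4 (median 0.09), and 0 and 3 (median -0.18). Box C loci thus had the higher median under both scalings, whereas the ACA-end median changed sign. The ACA-end list is the one drawn up later, and the difference between classes was not tested. Of the 52 tested loci inside a protein-coding gene, 1 was higher and 0 lower, or 0 and 2 of 53 with snoRNA scaling. In the main scaling 17.6% of the 210 snoRNA loci were higher and 1.43% lower, against 7.94% and 8.93% of all loci tested. In 57 clusters, 23 held a call, 0 held calls in both directions, and 3 were called higher throughout. Only 3 loci were called lower in all, so few clusters could hold both.

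**Figure D5:**
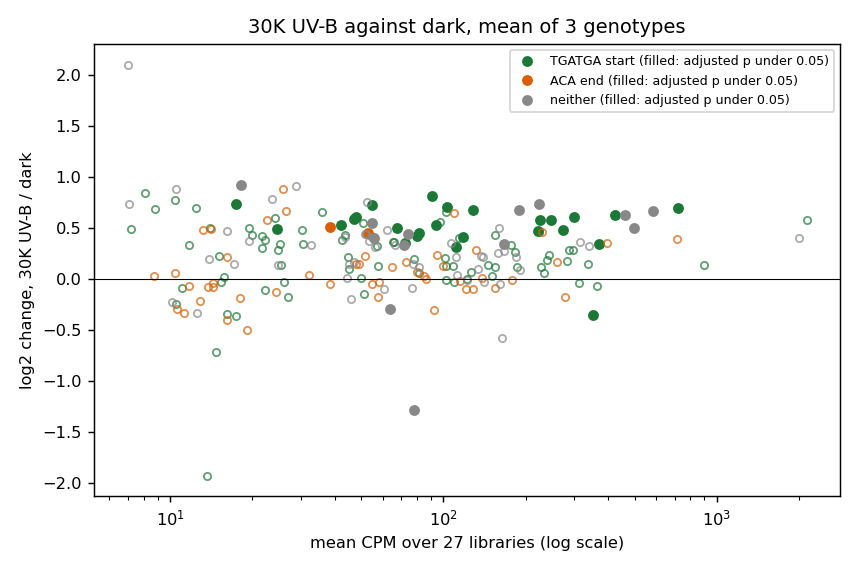
Log2 change after 30K UV-B against dark (mean of 3 genotypes) over the mean level of each of the 210 tested loci, by sequence class; filled points are those called (37 higher, 3 lower). The largest change upward is that of AT1G08327 at 0.92 among the named loci, and U3D lies lowest among those called, at -1.29.

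AT5G02305 had the smallest adjusted p among the named loci, at 40.7, 70.2 and 105 CPM (lowest, median, highest) after 30K and 30.0, 37.3 and 54.8 CPM in the dark (log2 change 0.72 ± 0.12, edgeR adjusted p = 0.00043). In uvr8-6 it had 44.8, 30.0 and 31.9 CPM in the dark, 39.0, 39.1 and 32.6 CPM after 3K and 49.3, 46.4 and 40.7 CPM after 30K, and the doses overlapped the dark. In xpf-3 it had 37.3, 35.7 and 46.7 CPM in the dark, 60.2, 64.3 and 68.8 CPM after 3K and 70.5, 70.2 and 81.9 CPM after 30K. In WT it had 33.5, 47.9 and 54.8 CPM in the dark, 66.4, 68.6 and 67.3 CPM after 3K and 82.6, 105 and 68.4 CPM after 30K. In xpf-3 and WT every irradiated library was above every dark one. The change at 30K did not pass in uvr8-6 (0.35 ± 0.20, edgeR adjusted p = 0.563) and passed in xpf-3 (0.89 ± 0.20, edgeR adjusted p = 0.0141) and WT (0.91 ± 0.20, edgeR adjusted p = 0.0219). The difference between the uvr8-6 and WT responses, -0.56, did not pass its own test (edgeR adjusted p = 0.831), so a difference is not shown. The WT call was lost in 4 of 6 fits that left out 1 library.

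AT4G04465 had 124, 155 and 198 CPM after 30K and 73.0, 102 and 129 CPM in the dark (0.67 ± 0.12, edgeR adjusted p = 0.000793). AT3G04155 was the 1 locus called at 3K over the genotypes (0.902% of all loci tested): it had 91.7, 117 and 152 CPM after 3K and 55.9, 73.5 and 90.3 CPM in the dark, with no overlap (0.62 ± 0.14, edgeR adjusted p = 0.0291). At 30K the same locus had 77.7, 124 and 163 CPM (0.70 ± 0.14, edgeR adjusted p = 0.00184). Its call at 3K was lost in 3 of 18 fits without 1 library. AT3G07735, with no 20-base word elsewhere, had 181, 220 and 307 CPM after 30K and 88.0, 162 and 199 CPM in the dark (0.67 ± 0.13, edgeR adjusted p = 0.00162).

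All 8 tRNA-Gly neighbours had positive changes after 30K and 4 passed (median 0.50; with snoRNA scaling 2 passed and all 8 stayed positive, median 0.29). AT1G08327 had 12.2, 23.0 and 34.9 CPM after 30K and 4.5, 12.3 and 23.3 CPM in the dark (0.92 ± 0.20, edgeR adjusted p = 0.00406). AT1G04527 (0.61 ± 0.13, edgeR adjusted p = 0.00353), AT2G08390 (0.81 ± 0.25, edgeR adjusted p = 0.0332) and AT2G08370 (0.53 ± 0.18, edgeR adjusted p = 0.0432) also rose. The tRNA-Gly loci before them had positive changes in 7 of 7 tested, and 3 passed.

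Some abundant loci had marginal calls. AT1G05433 (0.66, edgeR adjusted p = 0.0363), AT2G09685 (0.62, edgeR adjusted p = 0.0476) and AT4G03295 (0.62, edgeR adjusted p = 0.0332) were higher after 30K. Without replicate 2 of uvr8-6 after 30K their changes were 0.48, 0.42 and 0.44 and none passed (edgeR adjusted p = 0.0786, 0.0993 and 0.0626). Over the 18 fits that left out 1 library each, AT1G05433 lost its call in 6, AT2G09685 in 10 and AT4G03295 in 5. AT3G01316 (0.69 ± 0.17, edgeR adjusted p = 0.0106), with 512 to 1896 CPM after 30K and 354 to 1035 CPM in the dark, kept its call in all 18.

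The 3 loci that were lower after 30K were U3D, AT3G58193 and AT5G02565. U3D had 8.27, 24.1 and 124 CPM after 30K and 17.8, 85.3 and 187 CPM in the dark (-1.29 ± 0.33, edgeR adjusted p = 0.0113). The ranges overlapped widely, since 30K libraries of uvr8-6 (124, 70.8 and 117 CPM) were above those of xpf-3 (8.27, 20.2 and 37.7 CPM) and WT (16.7, 12.6 and 24.1 CPM). U3B had 79.5, 128 and 232 CPM after 30K and 60.9, 198 and 295 CPM in the dark (-0.58 ± 0.25, edgeR adjusted p = 0.115). AT3G58193 (-0.36 ± 0.10, edgeR adjusted p = 0.0181) and AT5G02565 (-0.30 ± 0.10, edgeR adjusted p = 0.0357) changed little. Of 18 fits that left out 1 library each, AT3G58193 lost its call in 6, AT5G02565 in 15 and U3D in 0. Without replicate 2 of uvr8-6 after 30K, AT5G02565 changed by -0.26 ± 0.10 and did not pass (edgeR adjusted p = 0.0973).

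Within single genotypes, with 3 libraries a group, few loci passed. In xpf-3 at 30K, 6 were higher and 0 lower (4.87% of all loci tested were called, 1.08% higher and 3.79% lower). More loci separated without passing the test: 57 were higher in every library after 30K than in any dark one (12.9% of all loci tested) and 4 lower (14.3%). The 6 called were AT3G01316 (1.06), SNOR108 (0.95), AT2G35382 (0.89), AT5G02305 (0.89), AT4G04465 (0.89) and AT5G00755 (0.83), with edgeR adjusted p from 0.0132 to 0.0465. Of 6 fits that left out 1 library each, AT3G01316 lost its call in 6, SNOR108 in 4, AT5G02305 in 3, AT4G04465 in 2 and AT2G35382 in 1. With snoRNA scaling AT2G35382 passed and AT3G01316, SNOR108, AT5G02305 and AT4G04465 did not. For AT5G00755, which the naming rule did not pick, these alternative fits are not given. SNOR108 had 59.3, 43.6 and 64.0 CPM after 30K and 27.6, 26.1 and 32.5 CPM in the dark in xpf-3. In WT at 30K, 2 were higher and 0 lower (1.89% of all loci tested were called, 0.451% higher and 1.44% lower), and 33 were higher without overlap (8.57%) and 2 lower (9.02%). AT3G08165 had 79.7, 77.7 and 71.1 CPM after 30K and 34.9, 37.1 and 13.7 CPM in the dark (1.40 ± 0.35, edgeR adjusted p = 0.0362), and AT5G02305 was the other. The call of AT3G08165 was lost in 3 of 6 fits that left out 1 library. In uvr8-6 at 30K, 0 passed in edgeR (0.541% of all loci tested), 18 had an unadjusted p under 0.05, and DESeq2 called 2. Without overlap 30 were higher (10.5%) and 1 lower (5.5%). The smallest p there was that of AT1G08327, with 19.8, 12.2 and 23.0 CPM after 30K and 9.54, 4.5 and 8.71 CPM in the dark (1.26 ± 0.36, edgeR adjusted p = 0.143). The comparisons within a genotype share their dark libraries with each other and with the mean over genotypes.

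At 3K, edgeR called 0 loci in uvr8-6 (0% of all loci tested), 0 in xpf-3 (0.541%) and 0 in WT (0%). At an unadjusted p under 0.05 there were 6 in uvr8-6, 37 in xpf-3 and 6 in WT, and DESeq2 called 1, 8 and 0. Without overlap 20 were higher and 3 lower in uvr8-6 (5.14% and 4.06% of all loci tested), 43 and 3 in xpf-3 (7.75% and 10.7%), and 15 and 7 in WT (6.31% and 4.69%). In xpf-3 the median log2 change was 0.29, against 0.00 over all loci, and 168 of 210 were positive. The lowest p there was that of SNOR108, with 52.1, 54.2 and 66.9 CPM after 3K and 27.6, 26.1 and 32.5 CPM in the dark (1.0 ± 0.25, edgeR adjusted p = 0.0585). With snoRNA scaling the median over the 210 in that comparison was 0.03.

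The third question was how xpf-3 differs from WT and whether the mutants respond differently to UV-B. Between xpf-3 and WT edgeR called 0 loci over the treatments (0% of all loci tested) and 0 in the dark (0%), and DESeq2 called 0 in both. At an unadjusted p under 0.05 there were 8 over the treatments and 7 in the dark. No locus was higher in all 3 xpf-3 dark libraries than in any WT dark library (2.98% of all loci tested), and 11 were lower (2.71%). The smallest p was that of AT1G06273, with a log2 change of -1.18 ± 0.38 over the treatments (edgeR adjusted p = 0.464). For the difference in response from WT, edgeR called 0 loci in each of the 4 tests (uvr8-6 or xpf-3, at 3K or 30K; 0% of all loci tested). At an unadjusted p under 0.05 there were 4 and 5 for uvr8-6 at 3K and 30K, and 13 and 4 for xpf-3. DESeq2 called 1 locus for uvr8-6 at 3K and 1 for xpf-3 at 30K. SNOR108 had the smallest p for uvr8-6 at 30K (-0.96 ± 0.34, edgeR adjusted p = 0.647), with 49.3, 63.5 and 52.2 CPM after 30K and 59.1, 76.5 and 64.8 CPM in the dark in uvr8-6, where the doses overlapped, and 57.0, 70.8 and 53.6 CPM after 30K and 30.1, 37.1 and 46.6 CPM in the dark in WT, where they did not. These p-values do not show that the genotypes respond alike.

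Promoter windows of 250 bases were searched on both strands for AACCCTA, the telo box, and for TGGGCC or TGGGCT, the site II element, both known from plant genes of ribosome production. The telo box was found before 76 loci (31.7%, against 7.05% of all genes) and the site II element before 39 (16.2%, against 16.8%), and 29 loci had both. In uvr8-6 against WT, 25 of the 68 tested loci with a telo box were higher and 9 lower, and 13 of the 35 with site II were higher and 6 lower. After 30K UV-B, 13 with a telo box were higher and 1 lower, and 10 with site II were higher and 1 lower. With snoRNA scaling the telo box counts were 19 and 15 in uvr8-6 and 2 and 2 after 30K, and the site II counts 10 and 8 in uvr8-6 and 3 and 1 after 30K. Over the 210 snoRNA loci, in the main scaling, 29% were higher and 15.7% lower in uvr8-6, and 17.6% were higher and 1.43% lower after 30K. Over all loci tested, in the main scaling, 14.3% were higher and 16.1% lower in uvr8-6, and 7.94% were higher and 8.93% lower after 30K. Whether loci with either motif differ from the other snoRNA loci was not tested. Many snoRNA genes are transcribed from a promoter further upstream in their cluster or host, which these windows do not cover.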

How the data were processed

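Deposited raw counts, whole-number reads per annotated small RNA locus made by the authors from 27 libraries, were the values used. Per the labels' protocols, total RNA was extracted with a DirectZol kit and libraries were made with the SMARter small RNA kit. FastQC and cutadapt are named, without versions, per the submitters' processing notes. Not given in the sources used here are the genome build, annotation, aligner, counting tool, strand setting and handling of multiple matches. In all, 299 deposited columns were not used. Libraries were grouped by their genotype and treatment. Libraries are not stated to come from separate cultures, so p-values measure only the spread among these libraries, perhaps a technical one; pairs of replicates differed by a chi-square per degree of freedom of 32.2 to 178 over all loci.

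The whole table of 2071 loci was fitted by edgeR's quasi-likelihood method (edgeR 4.0.16, R 4.3.3), with filterByExpr at min.count 10 and TMM scaling, as 9 groups with 18 residual degrees of freedom, and 16 comparisons were drawn. This left 1109 loci, over which p-values were Benjamini-Hochberg adjusted. Standard errors divide the log2 change by the square root of its F value. The fit was tested on simulated data. Alternatives were DESeq2 1.42.0, RLE factors, no filter, other library sizes, a replicate block, identical rows once, the compared groups alone and each library left out. Named loci were the 10 most abundant and, per comparison, called loci of at least 10 CPM whose groups did not overlap or, for means, with 1 sign throughout, up to 12 a direction in the main comparisons and 5 elsewhere. Others were named for shared sequence, and the ACA-end list was drawn up later, with the counts in view. Values of 1 called locus are not reported here. Members and lists were chosen with earlier results of these data known. Sequences, motifs, clusters (genes within 500 bases on 1 strand) and 20-base words were read from TAIR10.1 with Python 3.11.15, identities with edlib 1.3.9.post1. The 25S ribosomal RNA was not searched.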

Additional observations from a re-analysis of the deposited data

How the results depend on the processing

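Counts of called snoRNA loci moved under the alternatives as follows. Most of these comparisons moved by over 1.5 times in at least 1 alternative, whereas uvr8-6 against WT over treatments moved less. For WT at 30K (2 called), DESeq2 gave 16, no filter 0, snoRNA library sizes 1 and the compared groups alone 0; leaving out 1 library gave 0 to 6. For xpf-3 at 30K (6), DESeq2 gave 24, no filter 3, snoRNA sizes 4 and the compared groups alone 0; leaving out 1 library gave 1 to 5. For xpf-3 at 3K (0), DESeq2 gave 8, snoRNA sizes 1 and the replicate block 1. DESeq2 gave 1 for uvr8-6 at 3K, 2 for uvr8-6 at 30K, and 1 each for the different response of xpf-3 at 30K and of uvr8-6 at 3K, where edgeR gave 0. For the mean at 3K (1), DESeq2 gave 9 and no filter 0, and leaving out 1 library gave 0 to 4. For the mean at 30K (40), no filter gave 26 and snoRNA sizes 18, and leaving out 1 library gave 32 to 55. For uvr8-6 against WT in the dark (25), DESeq2 gave 42, the compared groups alone 0, and leaving out 1 library 3 to 27. For uvr8-6 against WT over treatments (94), leaving out 1 library gave 87 to 101, and DESeq2 65 higher and 35 lower. The cause of these moves was not tested. Without replicate 2 of uvr8-6 after 30K, the mean at 30K gave 35 higher and 2 lower, and uvr8-6 against WT 58 higher and 31 lower.

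Whether the replicate numbers pair the libraries was not settled. Across groups, 9 of 108 same-numbered pairs correlated above 0.1 (mean r 0.0213), against 3 of 216 pairs with different numbers (mean r -0.0107). Of 27 libraries, 16 correlated best with a library of their own number. This is a hint of weak pairing, from the data alone, and the main fit has no replicate block. With the replicate block, uvr8-6 against WT gave 92 calls and the mean at 30K 38.

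For 90 named results, 1814 alternative values were computed, of which 1646 kept direction and side of the threshold, 151 no longer passed, 17 newly passed and 0 changed sign. With snoRNA library sizes 14 of the 90 no longer passed. Loci below about 10 CPM rest on few reads in each library.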
